A study of Rattus norvegicus with 18 samples.

Results

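The 6 genes Mki67, Top2a, Cdk1, Ccnb1, Pcna and Ccnd1 of the cell division cycle were followed in rat hearts at weaning age. Their Ensembl IDs are Mki67 (ENSRNOG00000028137), Top2a (ENSRNOG00000053047), Cdk1 (ENSRNOG00000000632), Ccnb1 (ENSRNOG00000058539), Pcna (ENSRNOG00000021264) and Ccnd1 (ENSRNOG00000020918), 6 of the 30560 genes in the deposited table. They were chosen by Ensembl ID, without use of their values, and the pairing of ID and symbol comes from that choice. Of the 47357 genes in the reference table at hand 0 carry an Ensembl ID, and the pairing therefore stayed unchecked. All 6 passed the filter on low counts, with 17009 genes tested in all.

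The hearts came from male Wistar rat offspring 3 weeks old. They had been exposed in gestation to vehicle (7 hearts), to cannabidiol at 3 mg/kg/day (CBD3, 6 hearts) or to cannabidiol at 30 mg/kg/day (CBD30, 5 hearts). Cannabidiol is a non-intoxicating compound of the cannabis plant. The RNA is from heart tissue in bulk, so each value mixes cardiomyocytes with endothelial cells, fibroblasts and other cells. A smaller number of dividing cells and less RNA per dividing cell cannot be told apart. The labels name no route, days of dosing, litter or dam. P-values take the hearts as independent and would be too small if siblings are among them.

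Cells divide in an ordered cycle of a first gap phase, DNA replication, a second gap phase and mitosis. Rat cardiomyocytes largely leave this cycle in the weeks after birth, while endothelial cells and fibroblasts go on dividing as the heart grows. Ccnd1 encodes cyclin D1, which drives the first gap phase by activating Cdk4 and Cdk6. Pcna encodes the sliding clamp that holds DNA polymerase on its template and also serves in DNA repair. Cdk1 encodes the kinase that starts mitosis and Ccnb1 encodes cyclin B1, its mitotic partner. Top2a encodes the topoisomerase that untangles replicated chromosomes. Mki67 encodes Ki-67, which coats mitotic chromosomes and is the standard marker of dividing cells.

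Promoters of late cell cycle genes are known for CCAAT boxes, bound by the factor NF-Y, and for an element called the cell cycle homology region. RefSeq promoter sequences (build GRCr8) were found for 5 of the 6 genes, all except Ccnd1. They are shown as a description, and whether their motifs bear on how the genes varied between hearts was not tested. The 250 bases before the transcription start were searched on both strands for 4 motifs. The CCAAT box was CCAAT or its reverse complement ATTGG. The cell cycle homology region was taken as TTTGAA or its reverse complement TTCAAA. Capitals mark these motifs, and each sequence runs 5′ to 3′ on the strand of the gene. For Cdk1 the 209 bases before the outermost annotated start are shown. The Mki67 window lies inside a longer gene model, so a stretch of 30 bases is shown.
Top2a, chr10:84473094-84473343, minus strand: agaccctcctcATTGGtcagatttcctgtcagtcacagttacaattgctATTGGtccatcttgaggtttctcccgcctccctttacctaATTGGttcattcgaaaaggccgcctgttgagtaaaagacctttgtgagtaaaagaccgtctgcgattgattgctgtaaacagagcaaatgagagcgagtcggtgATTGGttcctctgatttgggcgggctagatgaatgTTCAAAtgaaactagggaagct
Cdk1, chr20:19265043-19265251, plus strand: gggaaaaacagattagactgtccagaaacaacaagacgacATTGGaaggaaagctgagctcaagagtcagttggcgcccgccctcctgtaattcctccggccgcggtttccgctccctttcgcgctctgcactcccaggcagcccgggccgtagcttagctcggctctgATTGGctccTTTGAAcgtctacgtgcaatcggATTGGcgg
Ccnb1, chr2:33655226-33655475, minus strand: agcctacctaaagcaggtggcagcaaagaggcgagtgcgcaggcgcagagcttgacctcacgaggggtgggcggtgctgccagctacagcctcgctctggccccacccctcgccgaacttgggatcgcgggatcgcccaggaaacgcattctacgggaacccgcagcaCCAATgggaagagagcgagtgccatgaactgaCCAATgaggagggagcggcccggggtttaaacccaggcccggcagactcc
Pcna, chr3:139955821-139956070, minus strand: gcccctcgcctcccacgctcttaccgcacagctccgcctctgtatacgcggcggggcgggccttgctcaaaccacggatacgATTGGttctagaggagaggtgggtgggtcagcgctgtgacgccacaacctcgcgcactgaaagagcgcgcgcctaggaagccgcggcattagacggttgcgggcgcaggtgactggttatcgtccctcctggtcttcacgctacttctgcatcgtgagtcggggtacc
Mki67, chr1:199952687-199952716, minus strand: ccagaaTTTGAAccgccgttttcgTTTGAA

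The full 250-base windows held 4 CCAAT boxes in Mki67, 4 in Top2a, 3 in Cdk1, 2 in Ccnb1 and 1 in Pcna. Of 33469 promoters of the same length, 34.0% held at least 1 CCAAT box and 2.52% held 3 or more. The letters TTTGAA occurred 2 times in Mki67, 2 times in Cdk1 (once in the stretch shown) and once in Top2a, against 16.2% of all promoters with at least 1 occurrence. Ccnb1 and Pcna held no TTTGAA in these windows. Both motifs together occurred in 5.87% of promoters. In Mki67 a CCAAT box and a TTTGAA shared 1 base. The other motifs searched are not marked. The E2F motif, TTTNNCGC, occurred 2 times in Cdk1 and in none of the other 4 windows, against 4.11% of all promoters. The GC box, GGGCGG or its reverse complement, occurred 4 times in Mki67, with 3 of these overlapping each other, and once in each of the other 4, against 30.5% of all promoters. These matches describe letters only, and no binding was measured.

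All 6 genes were detected in every heart, with the lowest deposited count at 184 (Ccnb1) and the highest at 4414 (Ccnd1). Values are CPM, the count scaled to library size, after TMM scaling, and they compare hearts for 1 gene, not genes with each other, since they are not per length. Library totals ran from 44127009 to 89240727 counts. For the 6 genes, counting error alone gave a coefficient of variation of 1.94% to 5.44% within a group, and it covers counting only. Pseudogene copies are annotated for Mki67 (1), Cdk1 (1) and Pcna (3), and no source at hand says how reads shared with them were counted. The values of these 3 genes are uncertain to that extent.

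Mki67, the marker of dividing cells, ran from 21.8 to 43.7 CPM in vehicle hearts with a median of 29.0 CPM. In CBD3 hearts it ran from 16.4 to 34.7 CPM with a median of 30.4 CPM. The 5 CBD30 hearts had 32.0, 17.6, 16.6, 40.8 and 40.9 CPM. The groups overlapped widely, and CBD30 held both low and high hearts. The CBD30 mean of 29.6 ± 11.9 CPM (SD, n = 5) lay beside 31.6 ± 7.46 CPM in vehicle (n = 7) and 28.4 ± 6.3 CPM in CBD3 (n = 6). The fitted CBD30 fold against vehicle was 0.935 with a 95% interval of 0.667 to 1.31 (log2 -0.10, SE 0.23; edgeR adjusted p = 0.845). For CBD3 it was 0.896 with an interval of 0.651 to 1.23 (log2 -0.16, SE 0.22; edgeR adjusted p = 0.77).

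Top2a, the chromosome topoisomerase, followed the same outline. Vehicle hearts had 15.3 to 26.5 CPM (median 24.2), CBD3 hearts 12.1 to 25.5 CPM (median 20.7), and CBD30 hearts 25.9, 14.9, 13.7, 24.6 and 27.2 CPM. The CBD30 hearts that were low for Mki67 were the low ones here too, and no pair of groups was apart. The log2 fold change was -0.06 ± 0.20 for CBD30 and -0.18 ± 0.19 for CBD3 against vehicle (SE; edgeR adjusted p = 0.89 and 0.692).

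Cdk1, the mitotic kinase, had 7.64 to 13.5 CPM in vehicle (median 8.46), 6.26 to 16.3 CPM in CBD3 (median 10.3) and 15.4, 9.82, 7.99, 12.4 and 11.8 CPM in CBD30 hearts. In vehicle, 6 of the 7 hearts were below 10 CPM, and the exception was the sample coded 3.1 at 13.5 CPM. Means were 9.29 ± 2.01 CPM in vehicle (SD, n = 7), 10.9 ± 3.36 CPM in CBD3 (n = 6) and 11.5 ± 2.79 CPM in CBD30 (n = 5). The log2 fold change against vehicle was 0.31 ± 0.20 for CBD30 and 0.23 ± 0.19 for CBD3 (SE; edgeR adjusted p = 0.433 and 0.621), within the spread between hearts. Without the vehicle sample coded 3.1 the CBD30 value was 0.42, with an unadjusted p of 0.0417 and an adjusted p of 0.2 (edgeR). In that fit 23.1% of all tested genes were under 0.05 unadjusted for this comparison and 1.57% passed after adjustment. Without CBD30 replicate 1 (code 1.1) the Cdk1 value was 0.18 (edgeR unadjusted p = 0.397, adjusted p = 0.697).

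Ccnb1, the cyclin that pairs with Cdk1 in mitosis, had nearly equal means of 6.00 ± 0.826 CPM in vehicle (SD, n = 7), 5.88 ± 1.91 CPM in CBD3 (n = 6) and 5.98 ± 1.28 CPM in CBD30 hearts (n = 5). Its lowest heart was the CBD3 sample coded 1.1 at 3.49 CPM and its highest the CBD3 sample coded 3.2 at 8.35 CPM, so a single group held both extremes. The vehicle hearts lay between 4.72 and 7.28 CPM. The CBD30 log2 fold change was -0.006 ± 0.19 (SE; edgeR adjusted p = 0.991), with a 95% interval of 0.754- to 1.32-fold.

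Pcna, the replication clamp, was the steadiest of the 6. It lay between 32.7 and 41.0 CPM in vehicle (median 34.6), between 33.0 and 39.8 CPM in CBD3 (median 38.4), and at 40.7, 32.8, 36.7, 41.2 and 35.7 CPM in CBD30 hearts. Over all 18 hearts its highest value was 1.26 times its lowest, against 2.67 times for Mki67. The CBD30 difference was 0.05 ± 0.08 on the log2 scale (SE; edgeR adjusted p = 0.768), and its 95% interval of 0.918- to 1.17-fold was the narrowest of the 6 genes.

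Ccnd1, the cyclin of the first gap phase, ran from 28.4 to 47.5 CPM in vehicle (median 34.9) and from 27.8 to 51.8 CPM in CBD3 hearts (median 33.4). The CBD30 hearts had 51.5, 39.6, 38.0, 47.5 and 39.1 CPM. Every CBD30 heart was above 6 of the 7 vehicle hearts, and the vehicle sample coded 1.1 at 47.5 CPM lay among them. The mean was 43.2 ± 6.01 CPM in CBD30 (SD, n = 5), 35.4 ± 6.11 CPM in vehicle (n = 7) and 36.2 ± 9.19 CPM in CBD3 (n = 6). The log2 fold change of CBD30 against vehicle was 0.28 ± 0.15 (SE), or 1.22-fold with a 95% interval of 0.981 to 1.51 (edgeR unadjusted p = 0.0712, adjusted p = 0.342). This was the smallest p of the 6 genes, and 20.8% of all tested genes had a smaller one. An exact two-sided permutation test gave an unadjusted p of 0.0505, where the smallest possible was 0.00126. Without the vehicle sample coded 1.1 the log2 value was 0.37 (edgeR unadjusted p = 0.0181, adjusted p = 0.354), in a fit where 12% of all tested genes were under 0.05 unadjusted. Without CBD30 replicate 1 it was 0.21 (edgeR unadjusted p = 0.194, adjusted p = 0.531), where 14.8% of genes were.

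**Figure D1:**
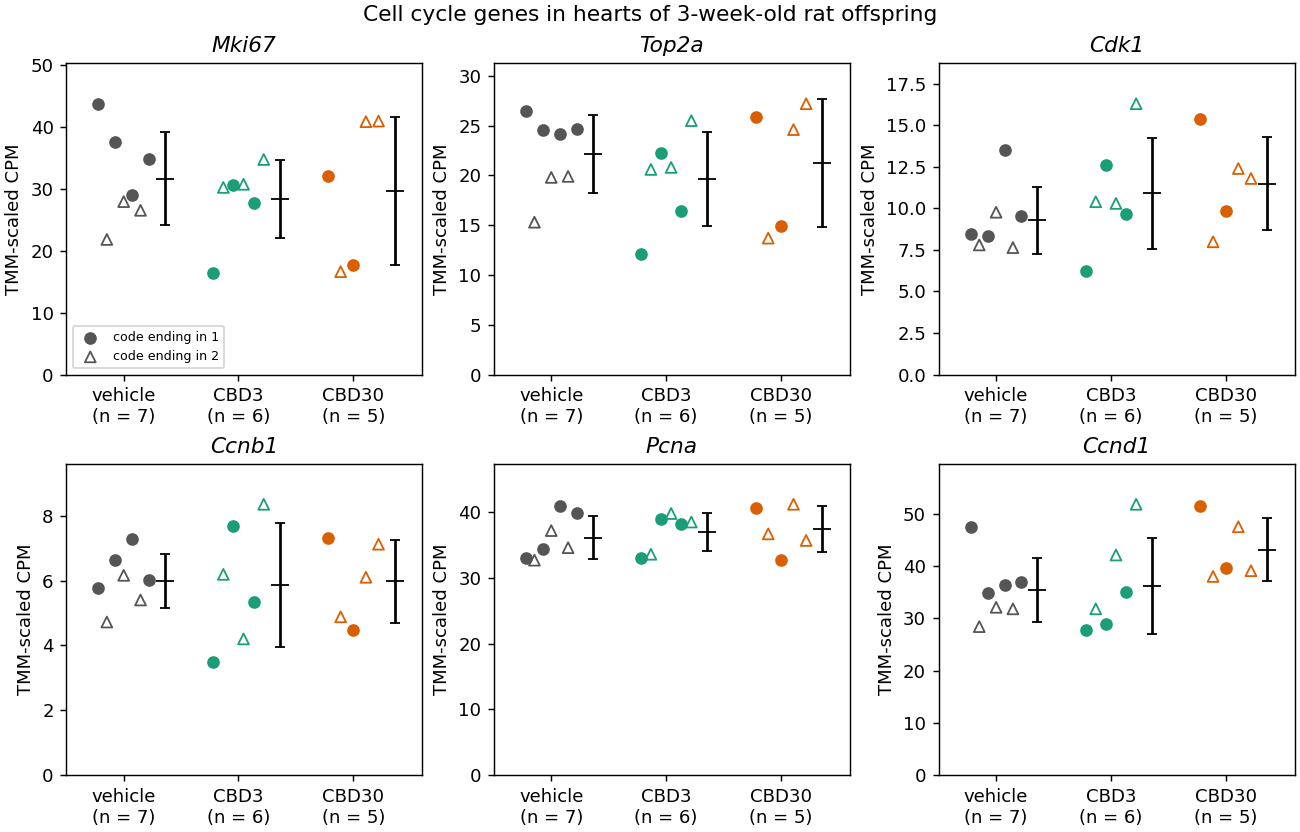
TMM-scaled CPM of each gene (vertical axes, from 0) in every heart by group, as filled circles (sample codes ending in 1) or open triangles (codes ending in 2), with black bars for the mean ± SD. The groups overlap for all 6 genes, and Pcna varies least, between 32.7 and 41.2 CPM.

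For CBD30 against vehicle 0 of the 6 genes passed an adjusted p of 0.05, where 0% of all tested genes did (edgeR). At an unadjusted p under 0.05 there were 0 of 6, against a background of 16.4% of tested genes. For CBD3 against vehicle the counts were 0 of 6 on both rules, with backgrounds of 0% and 8.92%. Between the doses they were again 0 of 6, with backgrounds of 0% and 1.73%. DESeq2 called 0 of the 6 after adjustment, with backgrounds of 0.839%, 0.107% and 0.00411% in the same order of comparisons. It had 0 of the 6 at an unadjusted p under 0.05, with backgrounds of 12.8%, 7.51% and 1.62%. With limma voom 0 of the 6 passed on either rule, where 0% of genes passed after adjustment and 16.9%, 10.6% and 1.73% unadjusted.

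The direction was mixed. Against vehicle, Cdk1, Pcna and Ccnd1 had positive and Mki67, Top2a and Ccnb1 negative fitted differences at both doses, which share the same vehicle hearts. The median log2 fold change over the 6 genes was 0.02 for CBD30 and 0.00 for CBD3, beside -0.02 over all tested genes in each case. The 6 genes were measured in the same hearts and are not separate observations. Between the doses all 6 fitted differences were positive, as were 53.1% of those over all tested genes. The median of the 6 was 0.07 beside 0.01 over all genes, and each interval included 0. Ccnd1 had the largest of these at 0.25 ± 0.15 (log2, SE; edgeR adjusted p = 0.999), and Mki67 had 0.06 ± 0.24.

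**Figure D2:**
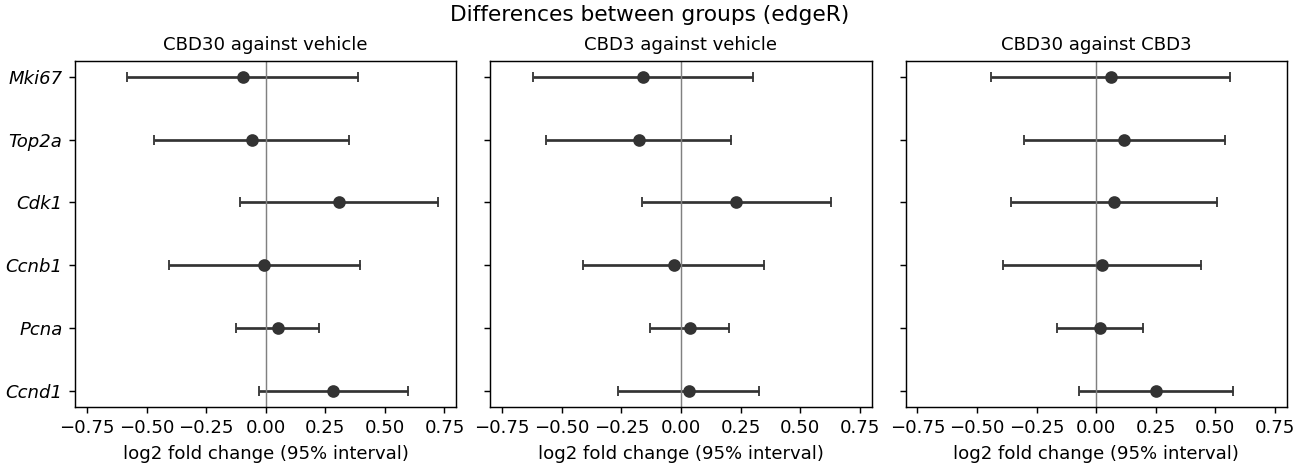
Fitted log2 fold changes (horizontal axes) of each gene (rows) in the 3 comparisons, with bars for the 95% interval and a grey line at 0. Every interval crosses 0. The Pcna intervals are the narrowest and Ccnd1 for CBD30 against vehicle, from -0.03 to 0.60, comes nearest to leaving 0.

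The sample codes end in digit 1 (4 vehicle, 3 CBD3 and 2 CBD30 hearts) or digit 2 (3 of each), and no label says what the digit means. Over all groups the digits were alike for these genes, with mean Mki67 of 29.9 CPM in digit 1 and 30.0 CPM in digit 2. Across all tested genes the median absolute log2 difference between digits was 0.0183, and 1 gene had an unadjusted p under 0.05, where chance alone would give about 850. No source at hand says whether the deposited counts were adjusted for the digit, and a step of that kind would not be reflected in the p-values.

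Within the digits the dose differences of Mki67 took opposite signs. With the digit means nearly equal over all hearts, a digit difference among vehicle hearts has to be offset among the CBD hearts. The digits are therefore not independent repeats. This offset does not fix the sign of a dose difference, and Cdk1 and Ccnd1 were positive in each digit for CBD30. In digit 1 the 4 vehicle hearts had 29.0 to 43.7 CPM of Mki67, all above the 3 digit 2 vehicle hearts at 21.8 to 27.9 CPM. Top2a (24.2 to 26.5 against 15.3 to 19.9 CPM) and Ccnd1 (34.9 to 47.5 against 28.4 to 32.1 CPM) parted them as fully. Cdk1, Ccnb1 and Pcna overlapped. How many tested genes part these hearts the same way was not counted. Library totals also parted them, at 63672078 to 80451013 counts in digit 1 and 44321480 to 51793929 in digit 2. For Mki67 the CBD3 hearts were arranged the other way, with a mean of 24.9 CPM in digit 1 and 31.9 CPM in digit 2. The log2 fold change of CBD30 against vehicle was -0.53 in digit 1 and 0.36 in digit 2, and that of CBD3 was -0.54 and 0.33. Top2a gave -0.28 and 0.25 for CBD30 and -0.56 and 0.28 for CBD3. Ccnb1 gave -0.11 and 0.15 for CBD30 and -0.22 and 0.20 for CBD3.

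Cdk1 and Ccnd1 differed from that outline at the higher dose. Cdk1 was 0.36 and 0.35 for CBD30, and -0.06 and 0.55 for CBD3. Ccnd1 was 0.25 and 0.43 for CBD30, and -0.35 and 0.44 for CBD3. Pcna was 0.004 and 0.12 for CBD30 and -0.01 and 0.10 for CBD3. At an unadjusted p under 0.05 (edgeR), digit 1 gave 0 of 6 genes for CBD30 (background 24.2%), 2 of 6 for CBD3 (12.7%) and 1 of 6 between doses (1.49%). Those were Top2a and Ccnd1, both lower in CBD3, and Ccnd1, higher in CBD30 than in CBD3 (0.59, unadjusted p = 0.0067, adjusted p = 0.999). Digit 2 gave Ccnd1 alone for CBD30 (1 of 6, background 4.79%), Cdk1 and Ccnd1 for CBD3 (2 of 6, 3.52%) and 0 of 6 between doses (1.74%), all with positive differences. No adjusted p passed within either digit, for any gene of the table. An interaction of group and digit was fitted after these values were seen. Its p-values are not given, since the near-equal digit means bear on them. The same limit holds for the p-values within the digits, and nothing is drawn from these counts of genes.

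Several of the 6 genes varied together from heart to heart. Mki67 and Top2a were the closest pair over the 18 hearts, with a Pearson r of log2 CPM of 0.937 and a Spearman rho of 0.938 (permutation p = 1e-05 for each, the smallest that 100000 permutations give; Benjamini-Hochberg adjusted p = 0.00015 over 15 pairs). Without the hearts farthest from the median of Mki67, the CBD3 sample coded 1.1 and the CBD30 sample coded 1.2, r was 0.889. It was 0.916 within digit 1, 0.973 within digit 2, and 0.941 after centring each group on its mean.

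Of the 15 pairs, 8 passed an adjusted p of 0.05 on Pearson r. How often pairs of other tested genes pass was not computed, so this count has no background beside it. For scale, shares of other tested genes with as high an r with the first gene of a pair are given. Over the 8 pairs they ran from 0.0118% (Mki67 with Top2a) to 5.47% (Top2a with Ccnd1). Over the pairs that did not pass they ran from 3.29% (Ccnb1 with Pcna) to 23.5% (Mki67 with Pcna), so the ranges overlapped. The share also depends on which gene is taken first, and for Pcna with Mki67 it was 6.14%. The mitotic pair Cdk1 and Ccnb1 had r = 0.778 and rho = 0.732 (permutation, adjusted p = 0.00105 and 0.00622), 0.705 without the 2 hearts farthest on Cdk1, and 0.793 and 0.763 within the digits. Top2a and Ccnb1 had r = 0.803 and rho = 0.684 (permutation, adjusted p = 0.000675 and 0.0127), 0.708 without the 2 hearts farthest on Top2a, and 0.87 and 0.702 within the digits. Cdk1 and Pcna had r = 0.688 and rho = 0.637 (permutation, adjusted p = 0.00627 and 0.0213), 0.666 without the 2 farthest hearts, and 0.78 and 0.565 within the digits. The other pairs past the threshold were Mki67 with Ccnb1 (r = 0.678), Top2a with Cdk1 (0.655), Cdk1 with Ccnd1 (0.599) and Top2a with Ccnd1 (0.549). Mki67 with Pcna (0.367) and Ccnb1 with Ccnd1 (0.356) were the weakest.

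One heart carried part of this. The CBD3 sample coded 1.1 was the lowest of all 18 for Mki67, Top2a, Cdk1, Ccnb1 and Ccnd1, and the 15th of 18 for Pcna. Without it 4 of the 15 pairs passed, Mki67 with Top2a (r = 0.92), Top2a with Ccnb1 (0.72), Cdk1 with Ccnb1 (0.71) and Cdk1 with Pcna (0.65). Within digit 1, which holds that heart, 4 pairs passed (exact permutation over 9 hearts), and they were those 4. Within digit 2, 6 pairs passed, with Mki67 and Top2a and Cdk1 and Ccnb1 among them. Top2a with Ccnb1 (r = 0.702) and Cdk1 with Pcna (0.565) did not pass there. Pcna with Ccnd1 did, at r = 0.836 against 0.0958 in digit 1. With libraries scaled by their totals alone all 15 passed, from 0.55 for Ccnb1 with Ccnd1 upward.

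**Figure D3:**
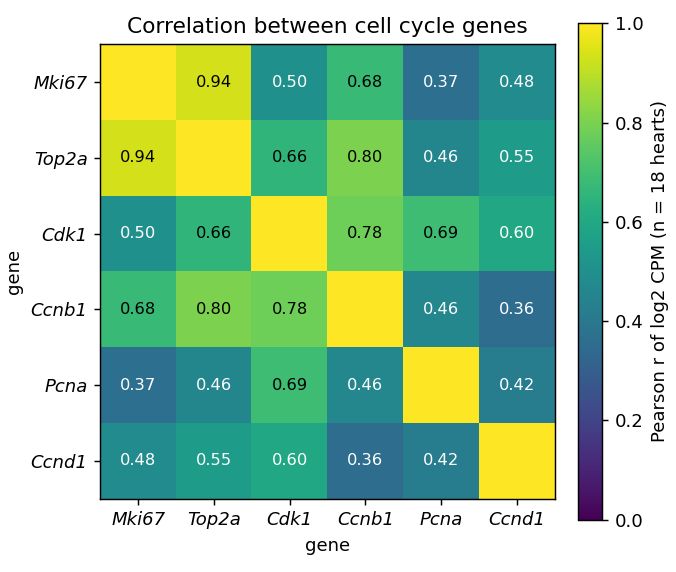
Pearson r of log2 CPM over 18 hearts for each pair of genes (rows and columns), coloured from 0 to 1. Mki67 with Top2a is the highest at 0.94, followed by Top2a with Ccnb1 at 0.80, and Ccnb1 with Ccnd1 is the lowest at 0.36.

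**Figure D4:**
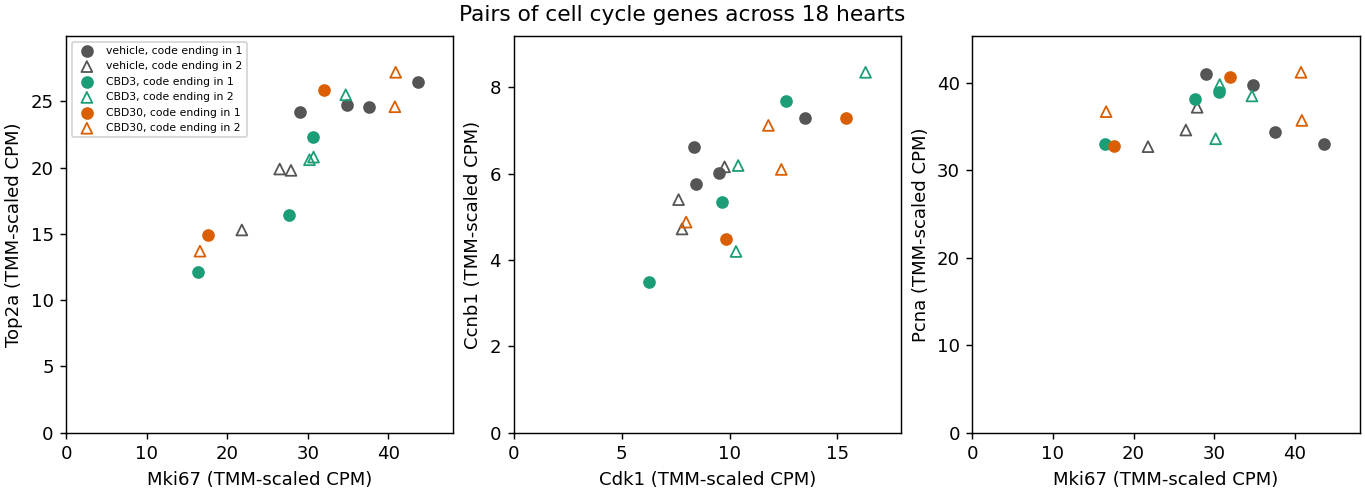
CPM of 3 gene pairs, 1 point per heart, with colours for the groups and marker shapes for the code digit. Mki67 and Top2a rise together from the 3 hearts below 18 CPM of Mki67 to the hearts above 40 CPM, while Pcna stays between 32.7 and 41.2 CPM over that range.

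Across the other 17008 tested genes, as a description, Top2a ranked 2nd by Pearson r with Mki67, which puts it in the top 0.0118%. Ccnb1 ranked 553rd, Cdk1 2232nd, Ccnd1 2491st and Pcna 3989th, while the median r with Mki67 over all genes was 0.008. The gene ranked first was ENSRNOG00000009303 (r = 0.937, rho = 0.886), at 4.94 ± 0.567 CPM in vehicle (SD, n = 7), 4.29 ± 0.571 CPM in CBD3 (n = 6) and 4.35 ± 1.14 CPM in CBD30 hearts (n = 5). The next outside the 6 were ENSRNOG00000056069 (r = 0.925), ENSRNOG00000011654 (0.925) and ENSRNOG00000014549 (0.922). No table at hand gives symbols for these 4 IDs.

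Mki67 and Top2a also moved with measures of the whole library. Mki67 had a Pearson r of -0.668 and a Spearman rho of -0.682 with the score on the first principal component of log2 CPM (permutation p = 0.00237 and 0.00231, adjusted p = 0.0213 and 0.0208 over 18 relations), -0.596 without the 2 farthest hearts, and -0.77 and -0.635 within the digits. That component held 29.8% of the variance, with CBD30 sample 2.1 at one end and vehicle samples 1.1 and 2.1 at the other. With the TMM factor Mki67 had r = 0.684 and rho = 0.715 (permutation, adjusted p = 0.0213 and 0.0208), 0.549 without the 2 farthest hearts and 0.794 and 0.537 within the digits. Top2a had r = 0.614 and rho = 0.631 with that factor (permutation, adjusted p = 0.0391 and 0.0357), 0.517 without the 2 farthest hearts and 0.626 and 0.599 within the digits. Mki67 with the library total had r = -0.0875 and rho = -0.0795 (permutation, adjusted p = 0.874 and 0.98). The part of these measures in the pair correlations was not tested.

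Spread between hearts of a group is given as a description. In vehicle hearts the coefficient of variation of CPM was 23.6% for Mki67, 21.6% for Cdk1, 17.8% for Top2a, 17.2% for Ccnd1, 13.8% for Ccnb1 and 9.10% for Pcna, beside a median of 20.9% over all tested genes. In CBD30 hearts Mki67 had 40.3% and Top2a 30.3%, beside a median of 18.9%, and 85.5% of tested genes had a lower value than Mki67. In CBD3 hearts Ccnb1 had 32.5% and Cdk1 30.7%, beside a median of 15.4%. Pcna stayed at 7.84% in CBD3 and 9.44% in CBD30 hearts.

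**Figure D5:**
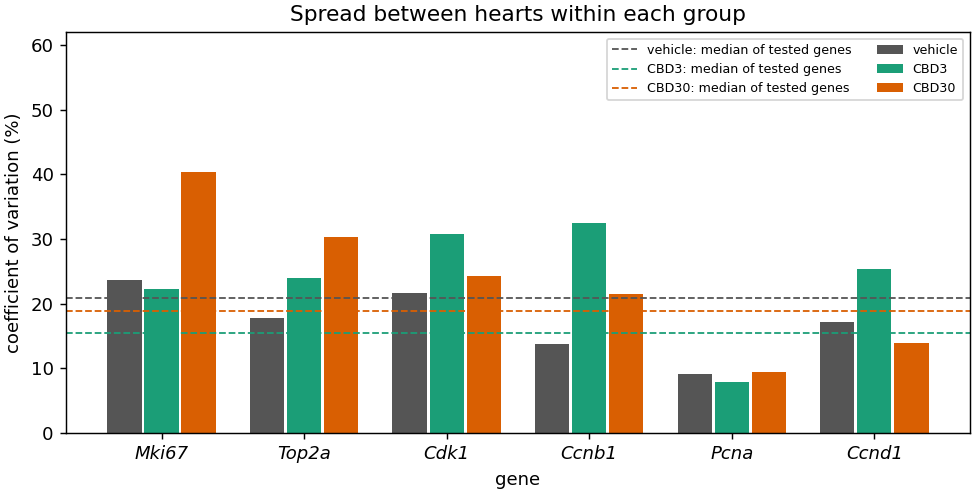
Coefficient of variation of CPM (vertical axis, percent) for each gene in the 3 groups (bars), with dashed lines for the median over all tested genes in each group. Pcna lies under the dashed lines in every group, and Mki67 in CBD30 hearts is the highest bar at 40.3%.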

How the data were processed

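The deposited values are read counts in whole numbers by Ensembl gene for each of the 18 hearts. Whether they were adjusted for the last digit of the sample code before deposit is unknown. The tools featureCounts and edgeR and the build mRatBN7.2 are named in the submitters' processing notes. Aligner, annotation release and counting settings remain not given in the sources used here. Per the labels' protocols, RNA came from frozen hearts and libraries from a stranded kit after messenger RNA enrichment. Columns were assigned to groups by their codes. A replicate number could be assigned to 14 columns, and the other 4, vehicle codes ending in 1, are each listed for a pair of vehicle samples and were used by group alone. All 46 pairs of hearts from the same group differed beyond counting noise (chi-square over degrees of freedom at least 36.1). Totals of 44127009 to 89240727 counts set the precision.

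All 18 samples were fitted at once with edgeR 4.0.16 (R 4.3.3), using filterByExpr (minimum count 10, minimum total 15), TMM factors and the quasi-likelihood F test, with Benjamini-Hochberg adjustment over 17009 genes and a threshold of 0.05. Standard errors were derived from the F test and intervals cover 95%. Log2 CPM used a prior count of 2. Correlations used two-sided permutation tests. DESeq2 1.42.0 and limma 3.58.1 were alternatives. The fit was tested on simulated data.

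The rule that chose the 6 genes used no measured values. The further lists described below were chosen with earlier results of these data known. The named genes were the 6 and the 4 tested IDs with the highest Pearson r with Mki67, a rule set for the case that IDs lack symbols. Lists of further cell cycle genes and of cell type markers, written by symbol, could not be matched to the IDs and were not used, so the tissue label was not checked against markers.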

Additional observations from a re-analysis of the deposited data

Results flagged for a closer look

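In 18 sets of 5 to 7 hearts (6 genes in 3 groups), 1 held a heart far from the others, where chance gives about 1 in 20. It was Cdk1 in vehicle, where the heart with code 3.1 had 13.5 CPM and the next highest 9.77 CPM. That heart held the vehicle median for Mki67 (29.0 CPM) and for Top2a (24.2 CPM). It was also the highest vehicle heart for Ccnb1 (7.28 CPM) and for Pcna (41.0 CPM), though not far from the others there. For Ccnd1 it had 36.4 CPM. Leaving it out raised the genes called for CBD30 against vehicle from 0 to 267 (1.57% of those tested, edgeR), none of them among the 6.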

How the results depend on the processing

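None of the 6 genes was called in any comparison under any alternative run, including each heart left out (0 to 0 in each). The genes called over the whole table ranged, with hearts left out, from 0 to 267 for CBD30 (267 when vehicle heart 3.1 was left out and 1 when CBD30 replicate 1 was), 0 to 0 for CBD3 and 0 to 0 between doses. DESeq2 called 133, 19 and 1, and edgeR called 1 between doses with only those groups fitted. The unadjusted counts, the interaction (not reported) and the 14 numbered hearts without the block were added after the data were seen.

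With the replicate block, on the 14 hearts that carry a number, the CBD30 values were 0.61 for Mki67, 0.67 for Top2a and 0.46 for Ccnb1, and the CBD3 values 0.52, 0.48 and 0.29, all opposite in sign to the fit of 18. Cdk1 was 0.76 for CBD30 (unadjusted p = 0.0488, adjusted p = 0.381, edgeR) and 0.56 for CBD3, and Pcna 0.17 and 0.14. Ccnd1 was 0.88 for CBD30 (unadjusted p = 0.00269, adjusted p = 0.211), 0.51 for CBD3 (0.0304 and 0.399) and 0.37 between doses (0.0196 and 1). No gene of the table was called in any comparison with the block. On the same 14 without the block Mki67, Top2a and Ccnb1 were 0.23, 0.22 and 0.15 for CBD30. For CBD3 they were 0.17, 0.10 and 0.12. These had the signs of the blocked fit, so leaving out 4 vehicle hearts was enough for the change of sign. The 8 same-numbered pairs had correlations of deviations of -0.196 to 0.308, and 3 of 13 hearts correlated best with their own number, so the numbers were not taken as pairs.

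Other reversals concerned uncalled differences. Without the 3 hearts farthest out (vehicle 1.1 and 2.1, CBD30 2.1), CBD30 values were 0.22 for Mki67, 0.14 for Top2a and 0.10 for Ccnb1, and CBD3 values 0.016 for Mki67 and -0.003 for Pcna. In digit 2, CBD30 values were 0.36, 0.25 and 0.15 for Mki67, Top2a and Ccnb1, CBD3 values 0.32, 0.28 and 0.20, and dose differences -0.03 for Top2a, -0.20 for Cdk1, -0.052 for Ccnb1 and -0.012 for Ccnd1. In digit 1, CBD3 values were -0.062 for Cdk1, -0.011 for Pcna and -0.35 for Ccnd1. Ccnb1 for CBD30 was 0.0085 with relative log expression factors, 0.0045 with only the groups compared and 0.0092 with DESeq2. With library size only, CBD3 values were -0.0052 for Pcna and -0.012 for Ccnd1. Mki67 between doses was -0.0057 with limma voom and -0.008 in the exact test. Of 324 values with a heart left out, 30 changed sign and 0 gained a call. The ranges were, for CBD30, -0.24 to 0.053 for Mki67, -0.16 to 0.064 for Top2a and -0.089 to 0.082 for Ccnb1. For CBD3 they were -0.16 to 0.082 for Ccnb1 and -0.098 to 0.12 for Ccnd1. Between doses they were -0.083 to 0.21 for Mki67, -0.055 to 0.22 for Cdk1, -0.088 to 0.15 for Ccnb1 and -0.021 to 0.059 for Pcna. The causes were not tested.

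The pairs correlated numbered 15 with library size only, 4 in digit 1, 6 in digit 2 and 13 without the 3 hearts, against 8. They numbered 4 to 12 with hearts left out (4 without CBD3 replicate 1). The median coefficient of variation of the 6 genes in vehicle hearts, 17.5%, was 13.8% to 19.0% with hearts left out. Ccnd1 for CBD30 was positive in 32 of 32 alternatives, with an unadjusted p under 0.05 in 7, in fits where 4.79% to 16.8% of all genes had one, and an adjusted p of 0.211 to 0.998 over the alternatives. These alternatives reuse the same hearts, and those without a CBD3 heart keep every heart compared, so the tally is not independent support. Cdk1 for CBD30 was positive in each alternative too. Counting error of 1.94% to 5.44% was smaller than the spread between hearts for each of the 6 genes in each group.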

Other observations

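The balance between Cdk1 and Mki67 within a heart was looked at after the values were seen, as a description with no test. It does not depend on library scaling. Cdk1 counts per 100 Mki67 counts were 19.4 to 46.5 in vehicle (median 28.8), 33.5 to 47.1 in CBD3 (median 36.6) and 29.0 to 55.7 in CBD30 hearts (median 48.1). The lowest were vehicle samples 1.1 (19.4) and 2.1 (22.2), and the highest was CBD30 sample 2.1 (55.7), the same 3 hearts that lay farthest out on the first component. Within digit 1 the means were 28.9, 38.2 and 51.9 for vehicle, CBD3 and CBD30 (n = 4, 3 and 2), and within digit 2 they were 33.2, 38.3 and 35.8 (n = 3 each). Top2a counts per 100 Mki67 counts were closer together, at 70.9 ± 7.28 over the 7 vehicle, 69.2 ± 5.58 over the 6 CBD3 and 74.9 ± 10.8 over the 5 CBD30 hearts (mean ± SD).

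Mki67 in CBD30 hearts lay in separate low and high ranges, with samples 1.2 and 2.1 at 16.6 and 17.6 CPM and samples 1.1, 3.2 and 4.2 at 32.0, 40.8 and 40.9 CPM. Top2a gave the same division, at 13.7 and 14.9 CPM against 24.6 to 27.2 CPM. Ccnb1 did too, at 4.88 and 4.48 CPM against 6.1 to 7.3 CPM. Cdk1 was also lowest in samples 1.2 and 2.1, at 7.99 and 9.82 CPM against 11.8 to 15.4 CPM. Its widest gap lay elsewhere, between 12.4 and 15.4 CPM, so it had no separate low range. The division was drawn from the Mki67 values of these same hearts. For Pcna, samples 1.2 and 2.1 had 36.7 and 32.8 CPM and the other 3 hearts 35.7 to 41.2 CPM, so the ranges overlapped. For Ccnd1 the low hearts, at 38.0 and 39.6 CPM, were not set apart from sample 4.2 at 39.1 CPM. A gap in Mki67 was not particular to CBD30, since CBD3 sample 1.1 had 16.4 CPM and the next CBD3 heart 27.6 CPM.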
